A study of Daphnia magna with 15 samples.

Results

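In neonates of the crustacean Daphnia magna, sampled as whole animals, 200 loci of 18877 high in 1 set of libraries are described. They had the largest difference among 441 loci that were higher in all libraries of that set than in all libraries of another. The 441 are 2.58% of the 17066 loci abundant and long enough to be compared, and 2024 (11.9%) showed the opposite. At the 200 loci the split ran across unexposed animals as well as drug-exposed ones. The first set, called here the control A library set, held 3 libraries of neonates exposed to etoposide at 300 ng/L, 3 exposed to imatinib mesylate at 2000 ng/L and 3 unexposed libraries named control A. The second, called here the control B library set, held 3 libraries of neonates exposed to cisplatin at 10 ng/L and 3 unexposed libraries named control B. Etoposide poisons topoisomerase II, imatinib inhibits certain tyrosine kinases, and cisplatin forms platinum crosslinks in DNA. All 15 libraries came from 1 laboratory strain, from animals aged 48 to 72 h that spent 24 h unfed in 25 mL of drug solution or plain medium, 20 to 25 at a time. How many animals went into a library, which control set belongs to which drug, and what else the libraries of a set share (day, culture or sequencing run) are not given in the labels, which do state that 12 indices were used for library making. Drug and library set therefore cannot be told apart for cisplatin against the other drugs; within a set, drug and control can be compared. Nothing in the labels states that the replicates are independent cultures, so a p-value here covers only library-to-library spread, part of which may be technical.

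The members were chosen from the measured values. FPKM, fragment counts scaled to transcript length and library size, which the authors deposited for each assembled transcript, were summed per locus and taken as log2(FPKM + 1). A locus qualified with a mean of at least 1 FPKM, a span of at least 500 bp and a lowest value over the 9 libraries of the control A set above the highest over the 6 libraries of the control B set. Of the 17066 loci with the mean and span, 441 qualified, or 2.58%, and the 200 with the largest difference between the means of the sets are the members. The difference between the sets at these loci is therefore a description and carries no test. The opposite arrangement, all 9 libraries below all 6, was met by 2024 loci, or 11.9%, none of them members.

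Daphnia magna is a small freshwater crustacean that reproduces mainly by parthenogenesis and grows by repeated moulting, in which a new cuticle is built under the old one. Families of tandemly duplicated genes are a known feature of the genome of its relative Daphnia pulex. RNA of a whole animal mixes all tissues, so fewer cells of a type and less RNA per cell cannot be told apart. The identifiers are those of a transcript assembly, 0 of which matched the reference table of named genes, so the loci are given by identifier and position and no function is assigned to any of them.

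The members were 8.53-fold higher in the control A set at the median, with a range from 3.49-fold to 53.6-fold on the log2(FPKM + 1) scale. Of the 200, 87 were at least 10-fold and 182 at least 4-fold higher. Over all 17066 loci the median difference was -0.22 on the log2 scale, an offset towards the control B set. That is opposite to the direction in which the members were chosen. After median centring, which moves the median of all loci to 0.02, the median difference of the members was 3.34 against 3.09 as deposited, and all 200 still had no overlap between the sets. After quantile normalization 197 had none. The balance of the whole table depended on this offset: after median centring 1031 loci (6.04%) lay wholly above and 702 (4.11%) wholly below, and after quantile normalization 778 (4.56%) and 1077 (6.31%).

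The same split was present among unexposed and among exposed animals when each was taken alone. The median of the difference between the control A and control B means over the members was 3.12 on the log2 scale, and that between the mean of etoposide and imatinib and the mean of cisplatin was 2.98. Control A exceeded control B by at least 1 log2 unit at 199 members, and the drug groups did so at all 200. The difference was larger among unexposed than among exposed animals at 115 of the 200. All libraries helped to choose the members, so these values describe them and support nothing.

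**Figure D1:**
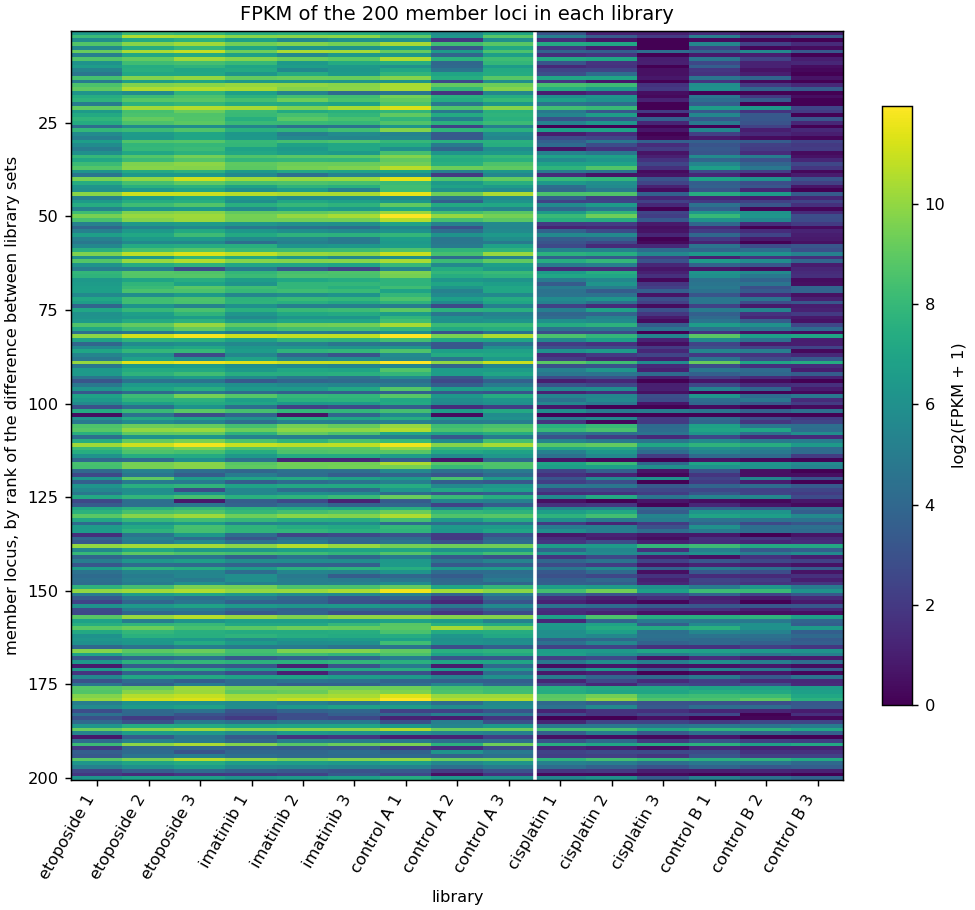
log2(FPKM + 1) of the 200 member loci, 1 row per locus from the largest (top) to the smallest difference between library sets, in the 15 libraries, with a white line between the control A set (left) and the control B set (right). Cisplatin 3 and control B 3 are the darkest columns, with medians of 2.67 and 2.65 FPKM, while cisplatin 1 and cisplatin 2 are intermediate at 21.5 and 23.6 FPKM.

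By library, the median over the 200 members was 71.8, 160 and 179 FPKM with etoposide, 113, 134 and 125 FPKM with imatinib, and 158, 57.4 and 86.3 FPKM in control A. It was 21.5, 23.6 and 2.67 FPKM with cisplatin, and 14.6, 6.28 and 2.65 FPKM in control B. The members thus stood above the typical locus in every library of the control A set, and in the control B set they ranged from somewhat above it (cisplatin 1 and 2) to well below it (cisplatin 3 and control B 3): the median over all loci of that span was 11.1 to 12.6 FPKM in the first set and 13.7 to 14.6 FPKM in the second. Within the control B set, cisplatin 3 and control B 3 were low together, although one was exposed and the other was not.

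Because the members are abundant, they make up a visible part of the RNA measured. Their share of all FPKM at loci of that span was 4.91%, 8.996% and 10.6% with etoposide, 8.09%, 7.58% and 7.504% with imatinib and 9.93%, 3.92% and 5.78% in control A. It was 1.68%, 2.02% and 0.539% with cisplatin and 1.11%, 0.792% and 0.435% in control B. The lowest share in the control A set, in control A 2, was above the highest in the control B set, in cisplatin 2. Between 32 and 75 members were among the 500 most abundant loci in a library of the control A set, and between 0 and 17 in a library of the control B set. Every member was chosen to be higher in each library of the control A set. The order of the sets in these shares and counts is therefore largely fixed by the choice. No member was listed at 0 in all 6 libraries of the control B set, 29 were at 0 in at least 1 of them (14.5%, against 1.21% of all loci of that span), and 8 were below 1 FPKM in all 6. The choice by largest difference also favours such low values in the control B set.

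**Figure D2:**
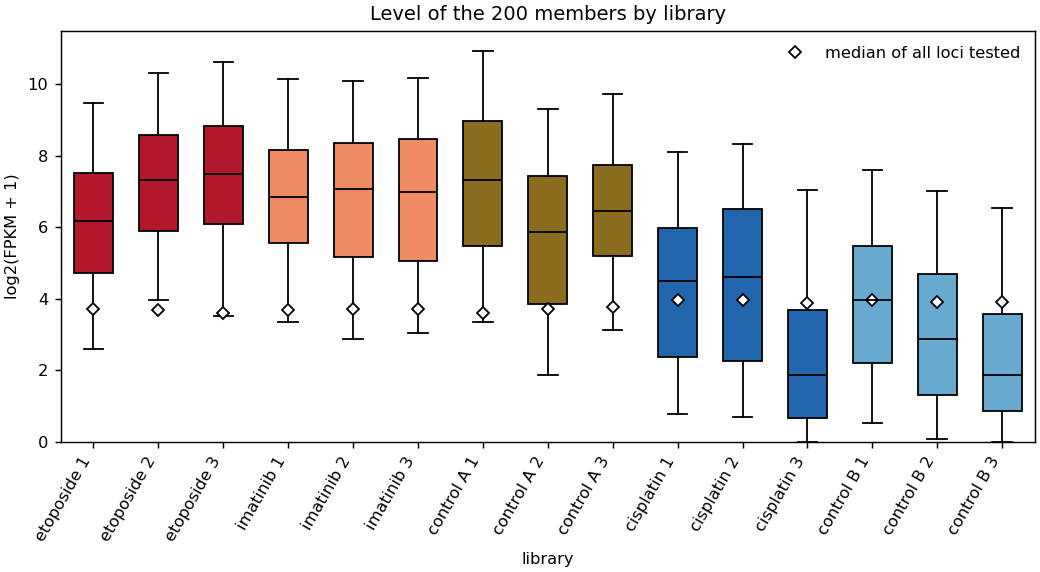
log2(FPKM + 1) of the 200 members in each library, as boxes from the lower to the upper quartile with the median as a line and whiskers from the 5th to the 95th percentile; open diamonds mark the median of all loci tested. Member medians lie from 5.87 to 7.49 in the control A set and from 1.87 to 4.62 in the control B set, while the diamonds stay between 3.59 and 3.97.

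XLOC_010548 (scaffold01843, 25254 to 26343), a single-transcript locus, had the largest difference between the sets, 5.74 on the log2 scale. It measured 85.9, 275 and 244 FPKM with etoposide, 166, 186 and 168 FPKM with imatinib and 126, 53.2 and 129 FPKM in control A. In the other set it measured 7.36, 1.22 and 1.06 FPKM with cisplatin and 1.88, 0.796 and 0.96 FPKM in control B. The second largest difference, 5.55, was at XLOC_008446 (scaffold01575, 59938 to 67481), which ranged from 82.9 to 1455 FPKM (median 921) over the 9 libraries of the control A set and from 3.09 to 35.3 FPKM (median 9.51) over the 6 of the control B set. At both loci control A 2 was the lowest library of its set and still above every library of the other.

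The most abundant member was XLOC_017151 (scaffold03051, 5653 to 7180). It reached 1067, 2762 and 3318 FPKM with etoposide, 2635, 2032 and 2002 FPKM with imatinib and 3867, 1008 and 1975 FPKM in control A. With cisplatin it measured 476, 303 and 55.9 FPKM and in control B 579, 128 and 162 FPKM, so the lower set was by no means silent. XLOC_017978 (scaffold03334, 7553 to 8574) was next, at 1106 to 3972 FPKM (median 1935) in the control A set and 202 to 1009 FPKM (median 469) in the control B set. Here the sets came close to each other, with etoposide 1 at 1106 FPKM and cisplatin 2 at 1009 FPKM.

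Within the groups of the control A set the steadiest member was XLOC_011954 (scaffold02007, 8522 to 10393), with 1027, 1269 and 1266 FPKM for etoposide, 936, 1512 and 1111 FPKM for imatinib and 706, 637 and 655 FPKM for control A. Cisplatin gave 98.8, 90.5 and 242 FPKM and control B 292, 155 and 148 FPKM. XLOC_008785 (scaffold01615, 22559 to 25036) was the next steadiest, at 6.78 to 22.8 FPKM (median 12.9) in the control A set and 1.35 to 4.77 FPKM (median 1.72) in the control B set. Among the loci with most transcripts, XLOC_003545 (scaffold00961, 41475 to 47552; 10 transcripts) spanned 380 to 1345 FPKM (median 895) in the control A set and 1.6 to 358 FPKM (median 31.5) in the control B set. XLOC_014045 (scaffold02336, 15934 to 21264; 9 transcripts) spanned 88.1 to 307 FPKM (median 173) and 10.4 to 26.1 FPKM (median 16.1) in the same order. The spread within the control B set was thus wide at XLOC_003545 and narrow at XLOC_014045.

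At the edge of the list, the last members were XLOC_017788 (scaffold03286, 20003 to 21006) and XLOC_018029 (scaffold03354, 7072 to 8814), with differences of 1.81 and 1.8 on the log2 scale. The loci just outside it were XLOC_004397 (scaffold01067, 45714 to 46715) and XLOC_015762 (scaffold02698, 34414 to 39351), with 1.79 and 1.76. XLOC_017788 had a median of 2.78 FPKM in the control A set and 0.196 FPKM in the control B set, and XLOC_018029 87.9 and 27.5 FPKM. The corresponding medians were 4.78 and 0.908 FPKM for XLOC_004397 and 10.6 and 2.56 FPKM for XLOC_015762. Values on either side of the limit were therefore alike, and the list ends within a continuous range.

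Within the control B set the members varied far more than other loci. The median SD over its 6 libraries was 0.9 on the log2 scale for members and 0.17 for all loci of that span; over the 9 libraries of the control A set it was 0.72 and 0.39. Cisplatin 1, cisplatin 2 and control B 1 were the 3 highest libraries of the control B set at 115 members (57.5%, against 9.56% of all loci of that span), and cisplatin 3 and control B 3 were the 2 lowest at 95 (47.5%, against 11.1%). Cisplatin 1 exceeded cisplatin 3 at 171 members, with a median difference of 1.55 on the log2 scale, and control B 1 exceeded control B 3 at 179, with a median difference of 1.1. Cisplatin 3 and control B 3, by contrast, differed by a median of 0.01, with cisplatin 3 higher at 101 of 200. These orders were read from the values and carry no test.

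To describe this spread, the members were divided at their median SD within the control B set, which fixes that the libraries of that set lie farther apart in one division than in the other. The 100 with the wider spread had medians of 37.5, 52 and 2.2 FPKM with cisplatin and 24.4, 8.44 and 2.12 FPKM in control B. The 100 with the narrower spread had medians of 6.91, 5.43 and 3.75 FPKM with cisplatin and 6.09, 3.86 and 3.39 FPKM in control B. The first 100 were also the more abundant and the more different between sets, with a median of 117 FPKM against 39.6 FPKM in the mean over all libraries and a median set difference of 3.67 against 2.62 on the log2 scale. The log2(FPKM + 1) scale understates the spread of low loci, so abundance is not independent of this division. The first 100 were also shorter, at a median span of 1298 bp against 2319 bp. In the control A set, control A 1 was the highest library at 58 loci with the wider spread and 12 with the narrower, while etoposide 3 was the highest at 28 and 54.

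In the control A set 2 libraries were often low and 2 often high. Control A 2 was the lowest of the 9 at 116 members, or 58%, where it was the lowest at 22.3% of all loci of that span, and etoposide 1 was the lowest at 43, where it was the lowest at 5.71% of all loci. Etoposide 3 was the highest at 82 members and control A 1 at 70, where they were the highest at 19.9% and 16.3% of all loci. Control A 1 listed 1014 of the loci tested at 0, against 34 to 199 in the other 14 libraries. No member could be among them, because the rule needs a value above the highest of the control B set. Across members, control A 1 exceeded control A 2 by a median of 1.67 on the log2 scale and etoposide 3 exceeded etoposide 1 by 1.41. Other libraries of 1 group were closer, with imatinib 2 and imatinib 3 a median of 0.19 apart in absolute value.

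Each library was then placed by a value that had no part in the choice. For every library in turn, 200 loci were chosen by the same rule from the other 14, and the number of loci was counted at which the left-out library lay on its own side of every library of the other set. It did so at 187, 200 and 176 loci for etoposide 1, 2 and 3 (background over all loci of that span 19%, 20.9% and 26.5%), at 199, 200 and 198 for imatinib (17.3%, 20.4% and 22.7%) and at 199, 115 and 195 for control A (23.5%, 21% and 20.8%). It did so at 149, 156 and 199 for cisplatin 1, 2 and 3 (7.55%, 6.47% and 8.84%) and at 164, 199 and 199 for control B (7.41%, 8.26% and 9.41%). Every library was thus placed with its set at a majority of the 200 loci, with control A 2 the least often, at 57.5%. The loci chosen without control A 2 included 115 of the members, and the other lists 149 to 199.

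**Figure D3:**
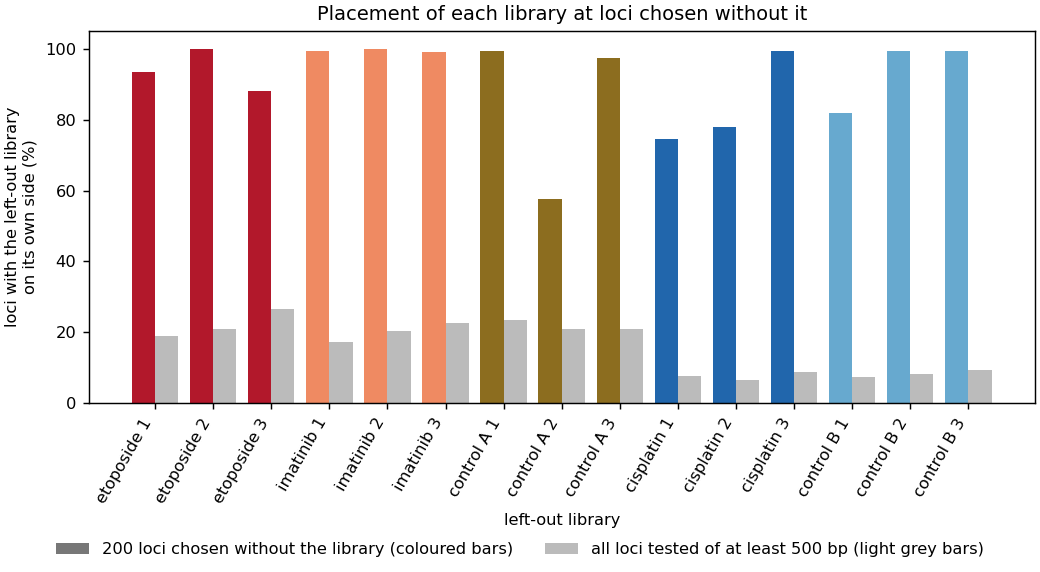
Percent of loci at which a left-out library lay on its own side of every library of the other set, for the 200 loci chosen without it (coloured bars) and for all loci tested of at least 500 bp (light grey bars). The coloured bars run from 57.5% in control A 2 to 100% in etoposide 2 and imatinib 2, and the grey ones from 6.47% to 26.5%.

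To ask for the difference apart from any drug, 200 loci were chosen on the 9 drug libraries alone, etoposide and imatinib against cisplatin, and examined in the unexposed libraries. Relative to control B, 149 of these loci were higher in control A and 0 lower, with 183 at an unadjusted p under 0.05, where 38.7% of all loci were (limma fitted across all 18098 loci tested, threshold 0.05 on the Benjamini-Hochberg adjusted p), where 6.49% of all loci were called higher and 16.9% lower. Control A had the higher mean at 196 of the 200, or 98%, against 31.3% of all loci tested. All 3 control A libraries lay above all 3 control B libraries at 155 of the 200, where 10.6% of all loci of that span did. The median difference between control A and control B was 3.23 on the log2 scale at these loci and -0.24 over all loci tested. Of the 200 loci, 99 are members.

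The smallest p in this comparison was at XLOC_004986 (scaffold01146, 74141 to 77269), a single-transcript member that shares its interval with another member. It measured 385, 229 and 221 FPKM in control A and 14.6, 18.3 and 6.28 FPKM in control B, a log2 difference of 4.38 (SE 0.41; limma, adjusted p = 0.000405). XLOC_010548, described above, followed with a log2 difference of 5.48 (SE 0.56; limma, adjusted p = 0.000586). Both kept the call under all 15 alternatives. The count itself depended on the spread used: it was 73 in a fit of the unexposed libraries only, again 73 when libraries were weighted, and 98, 90 and 71 without control A 1, control B 2 and control B 3. In the same order, 2.67%, 4.5%, 6.28%, 3.66% and 2.96% of all loci tested were called higher. All loci of the list called under these alternatives were again higher in control A.

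**Figure D4:**
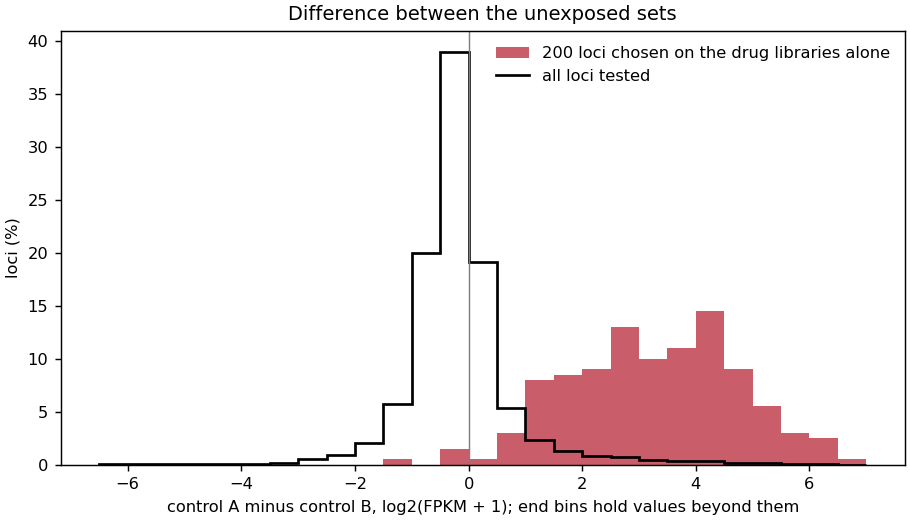
Distribution of the difference between control A and control B on the log2(FPKM + 1) scale, as percent of loci per bin of 0.5, for the 200 loci chosen on the drug libraries alone (red bars) and for all 18098 loci tested (black line). The red bars centre on a median of 3.23 and the black line on -0.24.

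Within the control A set, few members differed between a drug and control A. With etoposide, 3 members were higher and 0 lower by limma at a threshold of 0.05, and 32, or 16%, had an unadjusted p below that value, against 34.1% of all loci; the calls are 1.5% of the members, against 7.63% of all loci tested called higher and 7.82% called lower. With imatinib, 2 members were higher and 1 lower, against 4.14% and 4.9% of all loci, with 22 members, or 11%, at an unadjusted p under 0.05, against 27.6% of all loci. The members' share of calls was thus below the background in both comparisons with all libraries. For higher calls alone this did not hold in every alternative: without etoposide 1, 9.5% of the members were called higher with etoposide, against 6.68% of all loci. In that fit 0.5% of the members were called lower, against 7.69% of all loci. Both directions together gave 20 of 200 members and 2600 of 18098 loci. At an unadjusted p under 0.05 were 34% of the members in that fit, against 33.7% of all loci. For imatinib in a fit of the groups compared alone the shares were 16% and 16.5%. With same-numbered libraries also paired there, they were 13.5% and 12.3%. In the other alternatives the members' share was the lower for both drugs. The members' values were also less certain in the main fit. The 95% interval of a difference reached a median of 1.52 log2 units to either side at the members and 0.53 over all loci. It lay within 2-fold at 4 members for etoposide and 6 for imatinib, against 52.1% and 56% of all loci. In every comparison this width rests on a spread pooled over all 15 libraries. That includes the control B set, where the median SD was 0.9 at the members and 0.17 over all loci of that span. The rule keeps out any locus at which a drug or control A library falls to the level of the other set, so these counts apply to the members as chosen.

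XLOC_000292 (scaffold00101, 69931 to 71039) was higher with both drugs. It measured 25.8, 62.5 and 69.3 FPKM with etoposide and 45.2, 60.4 and 52.1 FPKM with imatinib, against 17.7, 8.6 and 10.9 FPKM in control A; the drug libraries did not overlap control A. The log2 differences were 1.94 and 2.05 (SE 0.38 each; limma, adjusted p = 0.0175 and 0.0149). XLOC_000945 (scaffold00347, 5246 to 7495) likewise measured 6.89, 3.27 and 4.93 FPKM with etoposide and 3.15, 6.3 and 5 FPKM with imatinib, against 1.25, 0.997 and 2.57 FPKM in control A, with log2 differences of 1.21 and 1.17 (SE 0.3 each; limma, adjusted p = 0.0253 and 0.0342). The drug comparisons share the control A libraries, so the likeness of the differences is not a separate result.

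The third member higher with etoposide, named after its values were seen, was XLOC_013940 (scaffold02314, 1518 to 3594), at 77, 169 and 156 FPKM against 81.1, 42.3 and 83.9 FPKM in control A (log2 difference 0.93, SE 0.29; limma, adjusted p = 0.0477). Its etoposide 1 value lay among the controls. The member lower with imatinib was XLOC_000738 (scaffold00286, 2454 to 3603), at 27.1, 8.79 and 4.23 FPKM against 40.3, 159 and 81.2 FPKM (log2 difference -2.85, SE 0.72; limma, adjusted p = 0.0319). With etoposide it measured 33.6, 33.6 and 5.95 FPKM and missed the threshold (log2 difference -2.01; limma, adjusted p = 0.0729), as did XLOC_008517 (scaffold01585, 47842 to 49427) with either drug, at 46, 58.7 and 5.81 FPKM with etoposide and 44.2, 18.2 and 16.6 FPKM with imatinib against 75.5, 141 and 106 FPKM in control A (limma, adjusted p = 0.0548 and 0.0616).

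Each of these calls depended on single libraries, as did most calls over all 18098 loci. Over all loci the calls for etoposide fell from 2797 to 11 without control A 2 and to 7 without etoposide 3. Those for imatinib fell from 1635 to 199, 53 and 21 without control A 2, imatinib 2 and imatinib 3. For etoposide, XLOC_000292 and XLOC_000945 lost the call without control A 2 (limma, adjusted p = 0.0676 and 0.1) and without etoposide 3 (0.0784 and 0.0962), and XLOC_000945 also without etoposide 1 (0.057). XLOC_013940 lost it without control A 2 (limma, adjusted p = 0.18), etoposide 2 (0.122) and etoposide 3 (0.185), and with the replicate block (0.0637). For imatinib, XLOC_000292, XLOC_000945 and XLOC_000738 lost it without control A 2 (limma, adjusted p = 0.0604, 0.117 and 0.114), without imatinib 2 (0.0635, 0.131 and 0.104) and without imatinib 3 (0.0568, 0.111 and 0.122), and XLOC_000945 also without control A 1 (0.0541). With a pseudocount of 0.1 XLOC_000945 passed for neither etoposide (limma, adjusted p = 0.123) nor imatinib (0.167). Calls were also gained: XLOC_008517 passed for etoposide without etoposide 1 (limma, adjusted p = 0.0445) and etoposide 2 (0.0264), and for imatinib without imatinib 1 (0.0473) and with library weights (0.0393), and XLOC_000738 passed for etoposide without control A 1 (0.0404). In limma fits of the groups compared alone 0 members passed for either drug, where 1 of all 18098 loci passed for etoposide and 2 for imatinib. At an unadjusted p under 0.05 were 15 members (7.5%, against 16.6% of all loci) for etoposide and 32 (16%, against 16.5%) for imatinib. Among all 200 members, etoposide lay above control A at 156 and imatinib at 152, with median log2 differences of 0.41 and 0.42, but without control A 2, the library lowest at most members, these medians were 0.04 and 0.02. Without control A 1 they were 0.89 and 0.82, and the etoposide median was 0.85 without etoposide 1 and 0.12 without etoposide 3.

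Cisplatin and control B, both low, differed at 0 members by limma (no adjusted p below 1). At 11 members, or 5.5%, the unadjusted p was under 0.05, against 1.23% of all loci, and by the adjusted p 0% of all loci were called higher and 0% lower. The members' share at an unadjusted p under 0.05 was 42.5% without cisplatin 3, against 2.4% of all loci. It was 24% with library weights, against 5.24%, and 1% without cisplatin 2, against 0.79%. Cisplatin lay above control B at 167 of 200 members, with a median log2 difference of 0.53 against 0.01 over all loci tested. That median was 1.07 without cisplatin 3, 0.82 without control B 1, and 0.33, 0.24 and 0.21 without cisplatin 1, cisplatin 2 and control B 3. The 95% interval lay within 2-fold at 9 members, or 4.5%, against 74.5% of all loci, so at the other members a difference beyond 2-fold was not outside the interval. With same-numbered libraries paired in a fit of these 6 libraries, 55 members, or 27.5%, had an unadjusted p under 0.05 by limma, against 5.32% of all loci, and again 0 passed.

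The members with the smallest p in this comparison were XLOC_004997 and XLOC_004986, which share the interval on scaffold01146 given above, in the upward direction, and XLOC_013877 (scaffold02302, 35646 to 37293) and XLOC_009533 (scaffold01711, 11916 to 12577) in the downward one. XLOC_004986 measured 37.7, 37.2 and 16.9 FPKM with cisplatin and 14.6, 18.3 and 6.28 FPKM in control B. XLOC_013877 measured 3.51, 1.42 and 0.991 FPKM with cisplatin and 22.5, 5.87 and 9.02 FPKM in control B, and XLOC_009533 3.29, 1.44 and 3.27 FPKM and 14, 5.16 and 8.22 FPKM. Cisplatin lay wholly below control B at XLOC_013877 and XLOC_009533, but neither passed (limma, adjusted p = 1 for each).

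Etoposide and imatinib, at 300 and 2000 ng/L, differed at 0 members by limma (lowest adjusted p = 0.333). At 2 members, or 1%, the unadjusted p was under 0.05, against 12.6% of all loci, and by the adjusted p 0% of all loci were called higher and 0% lower. The median log2 difference over the members was 0.08, and it was 0.49, -0.04 and -0.18 without etoposide 1, 2 and 3, so its direction depended on single libraries. The 95% interval lay within 2-fold at 17 of 200, or 8.5%, against 64.8% of all loci. XLOC_003452 (scaffold00955, 21915 to 23924) had the smallest p, at 15.2, 17.7 and 60.9 FPKM with etoposide and 20.7, 1.44 and 1.43 FPKM with imatinib. In control A it measured 9.4, 0.664 and 16 FPKM, so libraries of all 3 groups overlapped. XLOC_003718 (scaffold00984, 1 to 805) was next in that direction, at 6.81, 19.1 and 67.4 FPKM with etoposide and 20, 3.84 and 5.26 FPKM with imatinib, and XLOC_008785 led in the other, at 6.78, 16.9 and 10.9 FPKM and 18.6, 22.8 and 19.8 FPKM.

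Members tended to lie together on the assembly. The 200 loci fell on 128 of the 2426 scaffolds that hold a locus of that mean and span, 110 of them on 38 scaffolds with 2 or more members and 41 on 8 scaffolds with 4 or more. Of the 306 intervals directly next to a member's interval, 55, or 18%, held another member, against 1.3% of all intervals. Another member lay within 10000 bp of 100 of the 200. No background was computed for this count or for the counts of members that share a scaffold. Of the 41 members on the 8 scaffolds with 4 or more, 32 were among the 100 with the wider spread in the control B set. Some of this closeness lies in the assembly's own intervals: the members occupy 187 distinct intervals, and 25 of them share an interval with another member, where reads could have been divided between loci by the authors' assembly.

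The neighbours that are no members leaned the same way. The 280 such loci in adjacent intervals had a median set difference of 0.3 on the log2 scale, against -0.23 for all loci that are no members, and 95 of them, or 33.9%, exceeded 1, against 4.45%. Of these neighbours 5.36% had no overlap and were high in the control A set, against 1.43% of all non-members, and 6.07% had none and were low in it, against 12%. The 40 other loci inside a member's own interval had a median of 0.93, and 29 of them were higher in mean in the control A set. Since position was not part of the rule but neighbouring loci can share transcripts and overlapping reads, these are descriptions with no test.

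**Figure D5:**
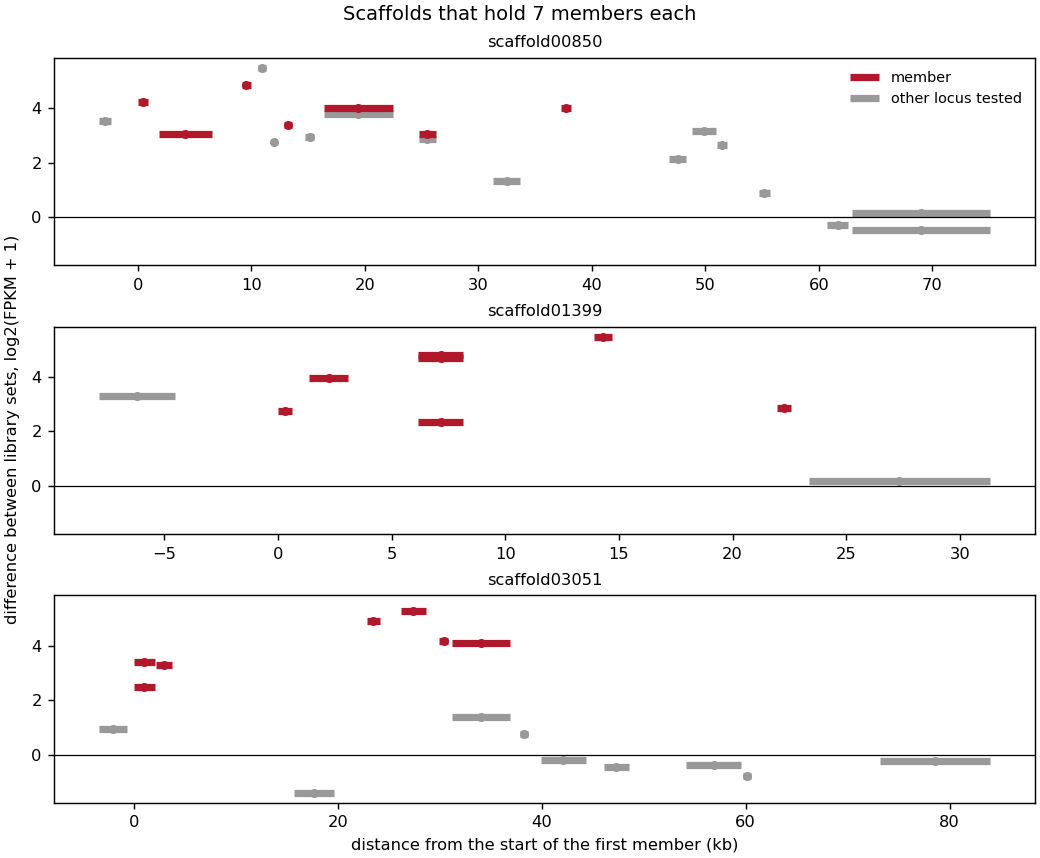
Difference between the means of the control A and control B library sets on the log2(FPKM + 1) scale for all loci tested of at least 500 bp on the 3 scaffolds with 7 members each, against distance from the start of the first member in kb; bars span the locus, with members in red and other loci in grey. Members lie between 2.34 and 5.45, and on scaffold00850 most grey loci within the same stretch are also above 2.

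Of all scaffolds, 3 held 7 members each. On scaffold01399, 7 of 9 loci tested were members, within 22554 bp and with differences from 2.34 to 5.45 on the log2 scale. On scaffold03051, 7 of 16 were, within 36903 bp and with differences from 2.48 to 5.26, led by XLOC_017154 (29641 to 32064) and XLOC_017153 (26320 to 27532). XLOC_017154 measured 199 to 1430 FPKM (median 548) in the control A set and 0.974 to 147 FPKM (median 14.7) in the control B set, and XLOC_017153 239 to 1552 FPKM (median 938) and 2.97 to 167 FPKM (median 40). On scaffold00850, 7 of 21 were, within 38140 bp and with differences from 3.04 to 4.85. Only 8 of its 21 loci had no overlap between the sets, but the median difference of its other loci was 2.7, so the higher level there extended beyond the members. The other loci of scaffold03051 had a median of -0.22, the level of the table as a whole.

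In structure the members differed modestly from other loci. Their median span was 1763 bp against 2264 bp, and 24.5% were under 1000 bp against 15.2% of all loci of at least 500 bp. A single transcript was assembled at 139 members, or 69.5%, against 60.9%. Sharing an interval with another locus was as common among members, at 31.5%, as among all loci, at 31.8%. The 61 members with 2 or more transcripts held 159 with a mean of at least 1 FPKM, of which 149 had the higher mean in the control A set and 63 had no overlap between sets. Over all loci of that span with 2 or more transcripts, 33.3% of such transcripts had the higher mean there and 1.34% had no overlap; since the members were chosen on the sum of their transcripts, these counts are largely fixed by the choice. At 8 members at least 1 transcript of that level was not higher. The main transcript took a median of 78.4% of the FPKM of such a member.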

How the data were processed

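The 15 libraries were stranded mRNA libraries of whole animals (320 ng of RNA each), analysed from 1 deposited table. The authors deposited FPKM per assembled transcript; Cufflinks 2.2.1, Cuffdiff, TopHat2 2.0, Bowtie2 2.1, Trim Galore and CASAVA 1.8.0 are listed in the submitters' processing notes. The sources used here give no settings, genome build or scaling across libraries. The columns hold no fragment counts, and values far below 1 fragment occur (XLOC_000945 has 5.53e-07 FPKM in cisplatin 1), so depth is unknown. The 33982 transcripts were summed to 18877 loci. Positions were moved by 1 base, because the table counts from 0 (751 loci start there). None of the identifiers (0) matched the 28335 genes of the reference table.

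Values were taken as log2(FPKM + 1), which understates the change of low loci. The 18098 loci whose mean reached 1 FPKM were fitted with limma 3.58.1 (R 4.3.3) using 5 group means over all libraries and a mean-variance trend, with Benjamini-Hochberg adjustment over all of them and a threshold of 0.05. It was tested on simulated data. Descriptions were made in Python 3.11.15. Loci in the text are those with the largest and smallest set difference, the smallest p in each direction of each comparison, the highest mean, the most transcripts (ties by mean FPKM), the scaffold with most members (ties by median set difference) and the least spread. The members and lists were chosen with earlier results of these data known.

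Whether equal replicate numbers pair libraries was checked by correlating deviations from the group means over the loci tested. For cisplatin and control B, r was 0.24, 0.21 and 0.50 for numbers 1, 2 and 3, all over 0.1, so those numbers were taken as pairs in an alternative fit. The main fit left them unpaired. The pairing rests on the values, since no label states it. Also checked were etoposide and control A, imatinib and control A, etoposide and imatinib, and control A and control B. In none of these were all 3 values over 0.1, and other pairs of groups were not checked. Alternatives were another pseudocount, other filters, quantile normalization, median centring, fits of the groups compared only, library weights, a replicate block and leaving out each library.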

Additional observations from a re-analysis of the deposited data

How the results depend on the processing

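Of the members chosen by the same rule, 99 were shared when the unexposed libraries were left out, 97 when the drug libraries were, and 115 to 199 when 1 library was, the lowest without control A 2. The count of members called for etoposide against control A, 3 as reported, was 1 with a pseudocount of 0.1, 5 after quantile normalization, 0 with only the groups compared, 0 with library weights, and 0 to 20 when 1 library was left out (20 without etoposide 1, 17 without control A 1, 10 without control A 3, 0 without etoposide 3 or control A 2). The calls over all 18098 loci moved too, from 2797 to 1 with only the groups compared and 1 with library weights. They were 2678 with the other pseudocount and 2735 after quantile normalization. Leaving out 1 library gave 2600 without etoposide 1, 3993 without control A 1, 4051 without control A 3, 7 without etoposide 3 and 11 without control A 2. The count of members called for imatinib against control A, also 3, was 5 after quantile normalization, 0 with only the groups compared, and 0 to 12 when 1 library was left out (12 without control A 1, 6 without control A 3 or imatinib 1, 0 without imatinib 2, imatinib 3 or control A 2). Over all loci 1635 were called as reported, 1710 after quantile normalization and 2 with only the groups compared. Leaving out 1 library gave 2470 without control A 1, 2672 without control A 3 and 1531 without imatinib 1. It gave 53, 21 and 199 without imatinib 2, imatinib 3 and control A 2. The 149 calls between the unexposed sets became 73 with only the groups compared, 73 with library weights, and 71 to 153 when 1 library was left out. Over all loci tested, 6.49% were called higher as reported, 2.67% with only the groups compared and 4.5% with library weights. That share was 2.96% without control B 3, which gave the 71, and 4.47% without control B 1, which gave the 153. With the replicate block, the counts for etoposide, imatinib and the unexposed sets were 3, 3 and 138. Over all loci, 2216, 1293 and 3689 were then called in either direction. With the block and only the groups compared, an alternative added after seeing the data, the counts were 0, 0 and 61, against 0, 0 and 287 over all loci. The block changed no call of cisplatin against control B, where 0 remained 0. The causes were not tested. Cisplatin against control B and etoposide against imatinib gave 0 called members under all alternatives run. Over all loci tested these comparisons gave no calls either, except 1 for cisplatin without cisplatin 3. The median set difference, also recomputed after seeing the data, stayed between 2.89 and 3.60 on the log2 scale. No single locus named with a test reversed its direction. Without fragment counts, the precision that depth gives to low values in the control B set cannot be stated.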
